A study of Mus musculus with 4 samples.

Results

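Integrins of blood progenitors were followed in bone marrow LSK cells through 9 genes: Itgal, Itgam and Itgb2, Itga4, Itga5, Itga6 and Itgav, and Itgb1 and Itgb7. They were taken by platform gene symbol, each from the probe set that named 1 gene and had the highest mean over the arrays, and all 9 were found among 22180 genes named in this way. All 9 also reached, in at least 1 array, the floor of 5.475 (log2) that marks the middle of the deposited values, as did 14061 genes in total. LSK cells are marrow cells that lack lineage markers and carry Sca-1 and c-Kit, a population with hematopoietic stem cells and multipotent progenitors. RNA was measured on 4 Affymetrix arrays, 1 per group: both genotypes, Ctrl and AMKO, at day 0 (basal), and both at day 8 after a 150 mg/kg injection of 5FU. The drug, 5-fluorouracil, is a uracil analog toxic to cycling cells. All mice were labelled as C57/B6 males aged 4 months. The labels do not spell out AMKO, which is used here as a genotype label, and the gene it refers to was not checked. They do not say how many mice contributed to an array, and no group had a replicate.

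Integrins are surface receptors made of 1 alpha and 1 beta chain, and neither chain reaches the cell surface in number without a partner. The alpha chains Itgal and Itgam pair with Itgb2 to form LFA-1 and Mac-1, the leukocyte integrins that bind ICAMs and, for Mac-1, complement fragments and fibrinogen. Itga4 pairs with Itgb1 (VLA-4) or Itgb7, and binds VCAM-1, fibronectin and MAdCAM-1. Itga5 with Itgb1 is the main fibronectin receptor, Itga6 with Itgb1 binds laminins, and Itgav pairs with several beta chains to bind vitronectin and latent TGF-beta. In marrow, VLA-4 and VLA-5 are known for holding stem and progenitor cells to stroma and matrix, whereas Itgam is used as a marker of mature myeloid cells and belongs to common lineage cocktails for excluding them.

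Markers of other blood cells were high in the Ctrl day 8 array, which bears on every comparison that uses it. All 14 named neutrophil markers lay at or above the floor there, against 3 of 14 in each basal array and 6 in the AMKO day 8 array. Their summed level on the linear scale was 25811 in the Ctrl day 8 array and 483 to 578 in the other arrays. The sums for 8 granulocyte-monocyte markers were 8788 against 1399 to 2106, and those for 11 B-lineage markers 5677 against 672 to 709. For 9 monocyte-macrophage markers the sum was 2256 against 523 to 818. In the Ctrl day 8 array 2 of these 9, and 2 of the 11 B-lineage markers, lay under the floor. The genes highest there in the 2 lists, Ly6c2 (9.92) and Ighm (11.86), weigh most in the sums. Kit, the receptor behind the c-Kit gate, was at 11.84 and 11.87 in Ctrl and AMKO at basal, and at 11.08 and 11.16 at day 8, so both day 8 values lay below both basal values. Ly6a, which encodes Sca-1, had no probe set of its own. Cd48, a surface protein used to separate progenitors from stem cells, was at 4.99 and 5.15 at basal, and at 9.96 and 9.49 at day 8. It was thus 31.3-fold higher at day 8 in Ctrl and 20.3-fold higher in AMKO, in the same arrays as the integrin differences described next. Xist, the RNA that coats the inactive X in female cells, was at 7.65 in the Ctrl day 8 array and at 3.97 to 4.41 elsewhere, although every array was labelled male. The Y-linked Kdm5d, Eif2s3y and Uty lay between 7.45 and 9.36 in all 4 arrays. All 9 skeletal muscle markers were at least 2-fold higher in the Ctrl than in the AMKO basal array, beside 0.697% of all genes. The Ctrl basal array enters every 5FU difference in Ctrl and every basal difference between the genotypes.

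Among the 9 integrin genes, those that differed most lay in the beta-2 group. Itgb2, the shared beta chain of LFA-1 and Mac-1, had log2 values of 7.66 (Ctrl) and 7.25 (AMKO) at basal, and of 9.61 (Ctrl) and 8.75 (AMKO) at day 8. Both day 8 values were above both basal values, and the Ctrl array was the higher at each time. The day 8 level was 3.86-fold the basal level in Ctrl and 2.83-fold in AMKO. Itgal, the LFA-1 alpha chain, had values of 6.29 and 6.55 in Ctrl and AMKO at basal, and of 8.67 and 7.79 at day 8. Again both day 8 values exceeded both basal values, by 2.38 within Ctrl and by 1.24 within AMKO on the log2 scale, or 5.21-fold and 2.36-fold.

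Itgam, the Mac-1 alpha chain also known as CD11b, had a different pattern. At basal its values were 5.61 (Ctrl) and 6.20 (AMKO), and at day 8 they were 9.93 (Ctrl) and 6.40 (AMKO). A single array, Ctrl day 8, was high, and the other 3 values lay between 5.61 and 6.40. The log2 difference between day 8 and basal was 4.32 in Ctrl and 0.20 in AMKO. The array with high Itgam was the one with high neutrophil, granulocyte-monocyte, monocyte and B-lineage markers, and the part of those cells in the Itgam value was not tested. In bulk RNA of sorted cells, fewer cells of a type and less RNA per cell cannot be told apart, which holds for every gene described.

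**Figure D1:**
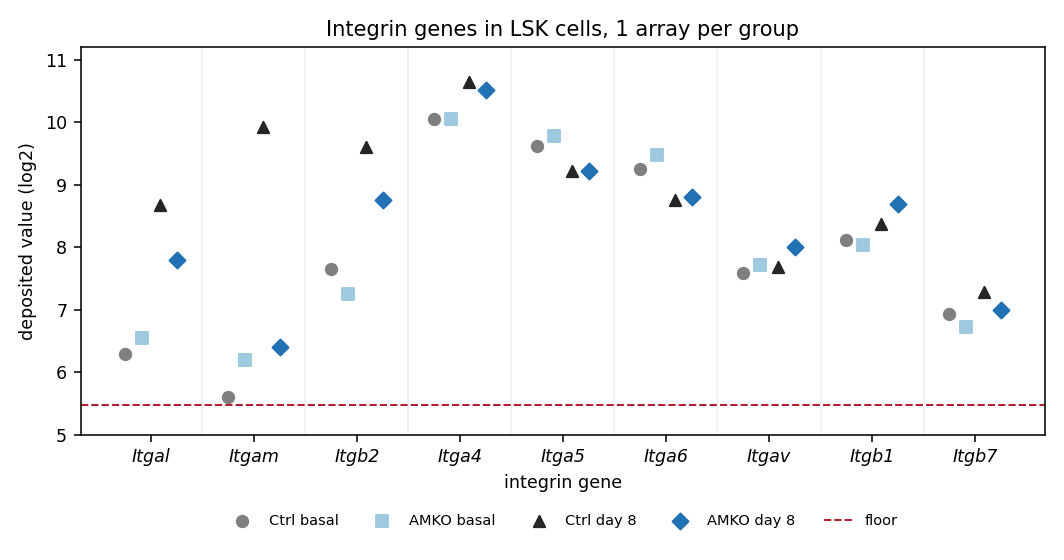
Deposited log2 values (vertical axis) of the 9 integrin genes (horizontal axis) in the 4 arrays, with 1 point per array and the floor of 5.475 as a dashed line. Itgal and Itgb2 are above both basal values in both day 8 arrays, and Itgam stands at 9.93 in Ctrl day 8 and at 5.61 to 6.40 in the other arrays. Heights of different genes come from different probe sets and are not comparable.

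In the AMKO pair of arrays, which leaves out the Ctrl day 8 array, Itgb2 and Itgal were 2.83-fold and 2.36-fold higher at day 8. The neutrophil list had a median log2 difference of 0.055 in that pair, the granulocyte-monocyte list -0.16 and the B-lineage list 0.05, over all named genes of each. The monocyte-macrophage list had a median of 0.43. Of its 8 members that passed the floor, 7 were higher, led by the complement genes C1qb (0.81) and C1qa (0.78). At least 2-fold higher were 0 of these 8, beside 4.69% of all genes. Cd48 (4.34) and Nkg7 (1.77), a granule protein of cytotoxic lymphocytes, were higher in the same pair. Nkg7 belongs to the T and NK cell list, whose median was -0.02 over all named genes. Of the 4 genes of that list that passed the floor, Nkg7 was the 1 higher and 3 were lower. The part of other cells, or of a different mix of progenitors, in the Itgal and Itgb2 values was not tested. Cxcr2 (1.12) and S100a8 (1.21) were the neutrophil markers at least 2-fold higher in AMKO. The Ctrl pair had list medians of 5.55 for neutrophil and 3.905 for granulocyte-monocyte markers, beside its larger differences for Itgal, Itgb2 and Itgam.

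**Figure D2:**
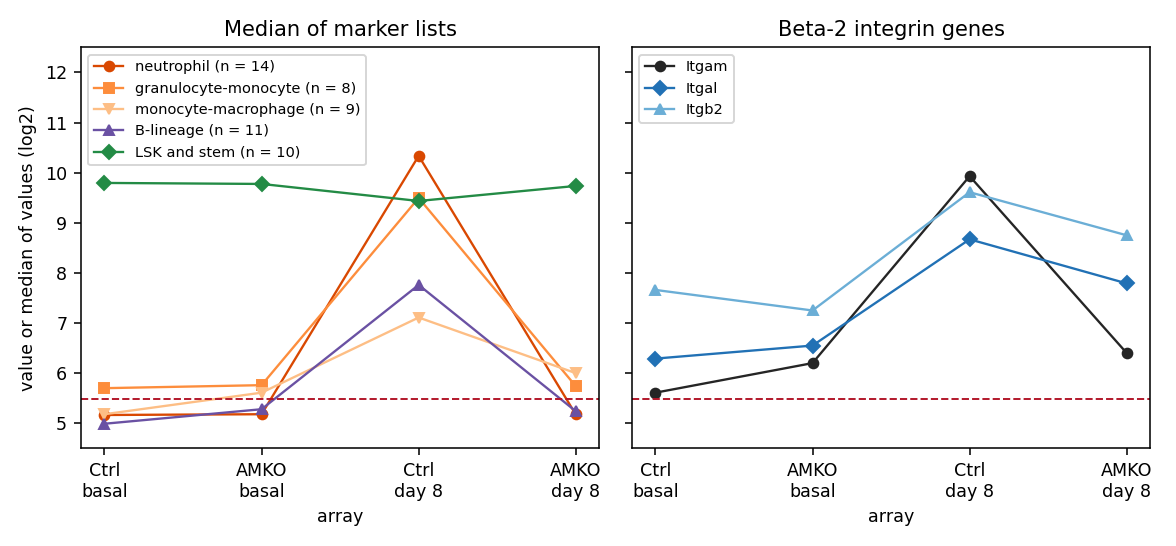
Left, median log2 value of 5 marker lists in each array, with the number of named genes in the key; right, log2 values of Itgam, Itgal and Itgb2 in the same arrays. Lines join the values of 1 list or gene and stand for no course in time, and the dashed line is the floor. The lists and genes come from different probe sets, so only the 4 arrays of 1 line can be compared; the neutrophil line is highest in Ctrl day 8, as are those of Itgam, Itgal and Itgb2.

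The promoter windows of 6 of the 9 genes were held in the RefSeq-derived table (build GRCm38.p6), from 250 bases before to 50 after the start. Itgal, Itgb2 and Itga6 were not in it. Of these windows, 3 are shown, 5′ to 3′ on the strand of the gene: Itgam, the gene high in a single array, and Itga4 and Itga5, whose day 8 differences had opposite signs in both genotypes. Capitals mark GAGGAA or its reverse complement TTCCTC, a core of sites bound by PU.1, an ETS factor of myeloid cells known to act at the Itgam promoter.
Itgam, chr7:128062390-128062689, plus strand: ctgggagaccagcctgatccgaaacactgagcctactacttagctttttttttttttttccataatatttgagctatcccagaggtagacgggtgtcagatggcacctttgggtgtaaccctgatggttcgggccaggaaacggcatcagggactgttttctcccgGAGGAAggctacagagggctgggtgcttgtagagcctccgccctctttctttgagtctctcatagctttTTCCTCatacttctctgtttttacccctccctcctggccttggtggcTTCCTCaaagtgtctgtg
Itga4, chr2:79255176-79255475, plus strand: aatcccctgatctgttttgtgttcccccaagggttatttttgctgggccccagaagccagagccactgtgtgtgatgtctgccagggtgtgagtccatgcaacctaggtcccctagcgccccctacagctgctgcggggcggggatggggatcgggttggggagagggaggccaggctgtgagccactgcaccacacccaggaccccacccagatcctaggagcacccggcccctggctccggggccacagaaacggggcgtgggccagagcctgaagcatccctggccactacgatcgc
Itga5, chr15:103366742-103367041, minus strand: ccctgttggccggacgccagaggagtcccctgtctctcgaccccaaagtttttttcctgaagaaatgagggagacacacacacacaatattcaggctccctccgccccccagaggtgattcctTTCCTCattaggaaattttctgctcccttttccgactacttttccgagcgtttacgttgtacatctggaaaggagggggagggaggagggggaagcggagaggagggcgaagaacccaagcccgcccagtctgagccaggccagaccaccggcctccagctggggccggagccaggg
The Itgam window held 3 matches, whose first bases were 84 and 15 bases upstream and 32 bases downstream of the start. Itga5 held 1 match, 127 bases upstream, and Itga4 held none. Among the other windows, Itgav held 2 matches and Itgb1 and Itgb7 held 1 each. At least 1 match on either strand was present in 28.3% of 32851 promoter windows of this length, so 1 match is not rare. The share of windows with 2 or 3 matches, as in Itgav and Itgam, was not counted. TGTGGT, a RUNX-type motif searched on both strands, was found once, in Itga4, 60 bases upstream, and in 16.8% of all windows. The GC box GGGCGG was in 5 of the 6 windows, all but Itgb7, and in 35.7% of all windows. No 2 of these matches overlapped. The matches describe letters in these windows and no factor binding was measured.

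The very late antigen group, with Itgb1 and its alpha partners, had smaller differences. Itga4, the alpha chain of VLA-4, had values of 10.05 and 10.06 in Ctrl and AMKO at basal, and of 10.65 and 10.52 at day 8. The basal arrays differed by 0.01, and both day 8 arrays lay above them, by 0.60 in Ctrl and 0.46 in AMKO. Itga5, the alpha chain of the fibronectin receptor VLA-5, had values of 9.62 and 9.78 at basal and of 9.22 in each day 8 array. Both day 8 values were thus below both basal values, by 0.40 in Ctrl and 0.56 in AMKO. Itga6, the laminin-binding alpha chain, had values of 9.25 and 9.47 at basal, and of 8.75 and 8.81 at day 8. It too was lower in both day 8 arrays than in both basal arrays, with log2 differences of -0.50 and -0.66. Among these alpha chains, in the probe sets used, Itga4 was therefore higher and Itga5 and Itga6 lower at day 8 in each genotype. A probe set naming Itga4 together with another gene was left out. It had values of 6.52 and 7.02 in Ctrl and AMKO at basal and of 6.49 and 6.67 at day 8, lower at day 8 in each genotype.

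Itgb1, the common beta chain of these receptors, was at 8.11 (Ctrl) and 8.04 (AMKO) before 5FU, and at 8.37 (Ctrl) and 8.70 (AMKO) at day 8. Both day 8 values were above the basal values, and the AMKO day 8 array was the highest. Itgav, the vitronectin receptor alpha chain, was at 7.59, 7.71, 7.69 and 8.00 in the same order. Its basal and day 8 values overlapped between genotypes, with AMKO day 8 above the other 3. A second Itgav probe set stayed between 3.46 and 3.80, under the floor. Itgb7, the beta chain that with Itga4 binds the mucosal addressin MAdCAM-1, had values of 6.93 and 6.73 at basal and of 7.28 and 7.0 at day 8. The Itgb7 values at day 8 lay above both basal values, by no more than 0.35 within a genotype.

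How LSK cells at day 8 after 5FU differed from basal cells was read in each genotype as a log2 difference of 1 array and 1 array, with no test. In Ctrl, 3 of the 9 integrin genes (33.3%), Itgam, Itgal and Itgb2, were at least 2-fold higher, beside 5.02% of all 14061 genes, and none was 2-fold lower, beside 4.46%. In AMKO, 2 of 9 (22.2%), Itgal and Itgb2, were at least 2-fold higher, beside 4.69% of all genes, and none was 2-fold lower, beside 3.55%. The median difference over the 9 genes was 0.35 in Ctrl and 0.29 in AMKO, against 0.01 and 0.03 over all genes. In each genotype 7 of the 9 were higher and 2, Itga5 and Itga6, were lower. The genes were chosen with results of these arrays known, so these counts describe the list. As places among all genes, 1% had a difference as high as that of Itgal in Ctrl and 2.46% in AMKO. For Itgb2 the shares were 1.4% and 1.32%, and for Itgam 0.228% and 36.7%. For the other genes, shares in the direction of the difference ran from 8.47% for Itga6 in AMKO to 41.8% for Itgav in Ctrl.

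**Figure D3:**
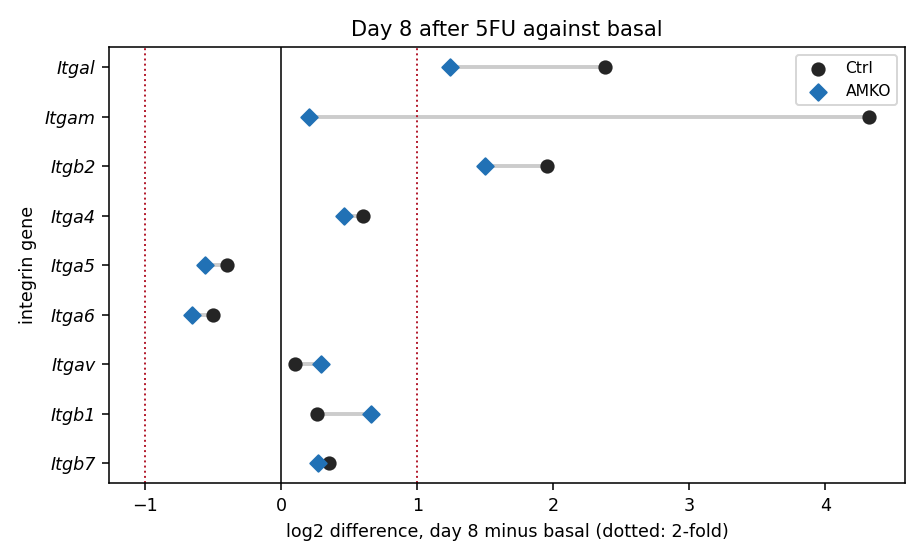
Log2 difference between the day 8 and the basal array (horizontal axis) for each integrin gene (vertical axis), with Ctrl as circles, AMKO as diamonds and 2-fold as dotted lines. The genotypes have the same sign for all 9 genes; Itgam is at 4.32 in Ctrl and 0.20 in AMKO, and the 6 genes outside the beta-2 group lie between -0.66 and 0.66.

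Scaling bore on the small differences in AMKO. Setting all array medians equal moved all AMKO day 8 differences up by 0.11, and with it Itgav became 0.40, Itgb1 0.77 and Itga6 -0.55. Quantile normalization moved these genes down, to 0.19, 0.52 and -0.82, from deposited differences of 0.29, 0.66 and -0.66. The split of all genes at least 2-fold different in AMKO was 660 higher and 499 lower in the deposited values, 958 and 382 after median centring, and 556 and 552 after quantile normalization. The sign of the day 8 difference was the same under both scalings for each of the 9 genes in each genotype.

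Averaged over the genotypes with an additive limma fit on all 4 arrays, the 5FU difference of Itgb2 was 1.73 ± 0.17 (SE), with a limma adjusted p of 0.0697, a value it shares with genes of smaller unadjusted p such as Itgb3 and Cd48. With 1 residual degree of freedom, the fit uses the gap between the genotypes' responses as its error, in place of a spread of replicates. Itgal had 1.81 ± 0.33 (limma adjusted p 0.0854) and Itga4 0.53 ± 0.11 (0.0961). Itga6 had -0.58 ± 0.13 and Itga5 -0.48 ± 0.12, with limma adjusted p of 0.0993 and 0.119. Itgb1 (0.46 ± 0.16), Itgb7 (0.31 ± 0.14) and Itgav (0.20 ± 0.14) had adjusted p of 0.189, 0.265 and 0.439. Itgam, with the unequal responses described above, had 2.26 ± 1.09 (limma adjusted p 0.278). No integrin gene passed the threshold of 0.05, and neither did any of the 14061 genes (0%). At an unadjusted p under 0.05 there were 5 of the 9, Itgb2, Itgal, Itga4, Itga6 and Itga5, beside 27.8% of all genes.

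Leaving out 1 array, with treatment as the only term and the genotypes thus unequally represented, moved some of these averages. Without the Ctrl day 8 array the averages were 1.30 for Itgb2, 1.37 for Itgal and 0.50 for Itgam, with limma adjusted p of 0.093, 0.0842 and 0.423. Without the AMKO day 8 array, the only 5FU array is Ctrl day 8, with its high neutrophil and B-lineage markers. The averages were then 2.16, 2.25 and 4.03, with limma adjusted p of 0.0418, 0.0365 and 0.0336, and these 3 of 9 genes were called beside 3.28% of all genes. Itga4 stayed between 0.47 and 0.60, Itga5 between -0.56 and -0.40 and Itga6 between -0.69 and -0.47 whichever array was left out. Robust estimation gave adjusted p of 0.0178 for Itgb2 and 0.0354 for Itgal, with 9.35% of all genes called.

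Whether the integrins differed between AMKO and Ctrl cells was read at each time. The comparisons share arrays with the 5FU differences above, so they are not separate evidence. At basal, 0 of 9 integrin genes were at least 2-fold higher or lower, beside 0.228% and 0.697% of all genes. The largest basal differences were 0.59 for Itgam and -0.41 for Itgb2, and the other 7 lay between -0.20 and 0.26. At day 8, 1 of 9 (11.1%), Itgam, was at least 2-fold lower in AMKO, beside 2.63% of all genes, and none was 2-fold higher, beside 0.74%. Its difference was -3.53, or 11.6-fold, and Itgal (-0.88) and Itgb2 (-0.86) followed in size. The other 6 genes lay between -0.28 for Itgb7 and 0.33 for Itgb1, and Itga5 had the same value in both day 8 arrays. The day 8 values of the beta-2 group rest on the Ctrl day 8 array, where the neutrophil list was a median of 5.25 above AMKO.

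**Figure D4:**
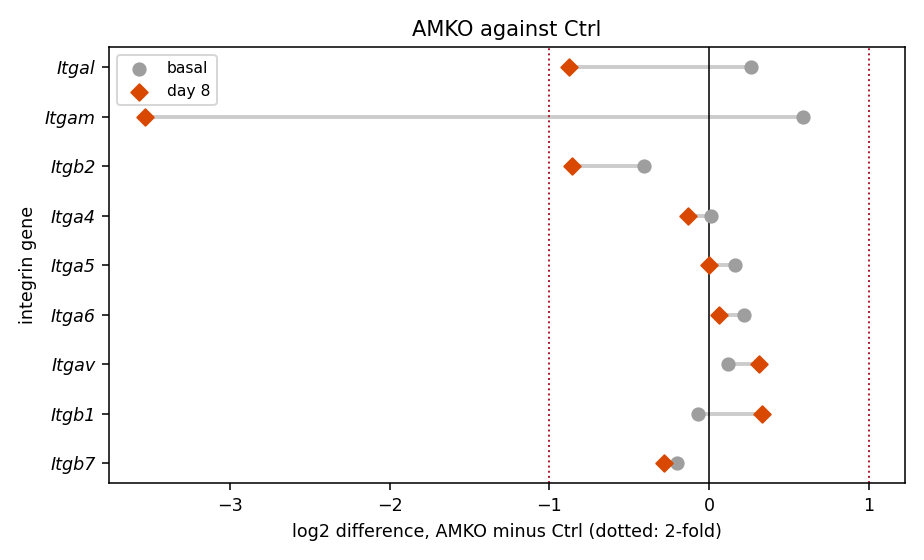
Log2 difference between the AMKO and the Ctrl array (horizontal axis) for each integrin gene (vertical axis), at basal (circles) and at day 8 (diamonds), with 2-fold as dotted lines. Itgam at day 8, at -3.53, is the one value past 2-fold; its basal value is 0.59.

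In the additive limma fit for AMKO against Ctrl over both times, 0 of the 9 integrin genes passed, with adjusted p between 0.906 and 0.947, and 0 of all genes (0%). At an unadjusted p under 0.05 there were 446 genes (3.17%), among them Itgb2 with -0.64 ± 0.17 (SE; limma adjusted p 0.906). Without the Ctrl day 8 array the genotypes can be set side by side at 1 time only, basal, where the Itgb2 difference was -0.41. With 1 array per group, the difference between the genotypes' 5FU responses has no test. It was -4.12 for Itgam and -1.14 for Itgal, the 2 of 9 genes (22.2%) past 2-fold lower, beside 2.94% of all genes, and none was past 2-fold higher, beside 2.57%. For the other 7 genes it lay between -0.45 for Itgb2 and 0.40 for Itgb1.

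The genes nearest in pattern were sought for the 3 members whose values spanned at least 1 on the log2 scale. Nearness was the distance between the 4 array values of a gene pair, each gene centred on its own mean, and describes 4 arrays alone. For Itgam the nearest were Cd33 (distance 0.158), Ms4a3 (0.301) and Slamf7 (0.311). Cd33, a sialic acid-binding receptor of myeloid cells, was at 9.35 in the Ctrl day 8 array and at 5.16 to 5.96 in the others. For Itgal they were P2ry13, a purine nucleotide receptor (0.232), Sntb2, a syntrophin (0.287), and Clec4e, the lectin receptor Mincle (0.305). For Itgb2 they were Antxr2, an anthrax toxin receptor (0.197), Ipcef1 (0.254) and Ifit1bl1 (0.267). Of these 9 genes, all but Clec4e and Antxr2 were under the floor in at least 1 basal array.

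Itgam is followed on chromosome 7 by Itgax and Itgad, which encode the alpha chains of CD11c/CD18 and CD11d/CD18. Itgax had values of 4.76 in each basal array, 5.43 in Ctrl day 8 and 5.08 in AMKO day 8, all under the floor. Itgad was at 5.23 and 5.05 before 5FU in Ctrl and AMKO, under the floor, and at 5.53 and 5.62 at day 8, just above it. Neither neighbour had a high value in the Ctrl day 8 array, and their day 8 differences in Ctrl were 0.67 and 0.30. With values under or near the floor, the size of these differences is uncertain.

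Of the 17 other integrin genes, 16 had a probe set naming that gene alone (all but Itga10), and 9 reached the floor. At day 8 none of the 9 was at least 2-fold higher in Ctrl or in AMKO, beside 5.02% and 4.69% of all genes. In Ctrl and in AMKO, 2 of the 9 were at least 2-fold lower, beside 4.46% and 3.55%. These were Itgb3 and Itga2b, the chains of the platelet fibrinogen receptor. Itgb3 went from 9.19 to 6.72 in Ctrl and from 9.47 to 7.02 in AMKO, so both day 8 values lay below both basal values. Itga2b had values of 9.73 and 10.21 at basal and of 8.69 and 8.66 at day 8, differences of -1.04 and -1.55. Both are megakaryocyte genes too, and Vwf (-1.35 and -1.04) and Gp9 (-0.78 and -1.21) of the megakaryocyte list were lower as well. Itgb5, another partner of Itgav, differed by 0.85 and 0.56, under 2-fold. None of the 9 was 2-fold different between AMKO and Ctrl at either time. The shares of all genes were 0.228% higher and 0.697% lower at basal, and 0.74% and 2.63% at day 8.

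**Figure D5:**
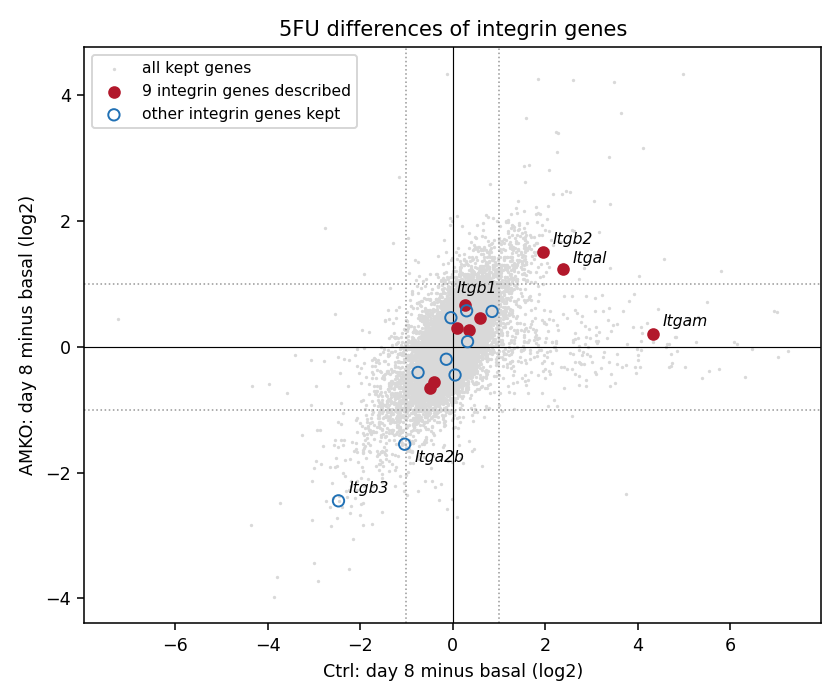
Log2 difference between day 8 and basal in Ctrl (horizontal axis) and in AMKO (vertical axis) for all 14061 genes (grey), the 9 integrin genes described (filled red) and the 9 other integrin genes that passed the floor (open blue), with 2-fold as dotted lines. Itgal and Itgb2 lie in the upper right, Itgb3 (-2.47 and -2.45) and Itga2b in the lower left, and Itgam far to the right near 0 on the AMKO axis.

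Genes that carry integrin signals to the cytoskeleton were read next. Of 30 activation and adaptor genes, which include the talins, kindlins, Rap1 effectors and focal adhesion proteins, 26 were named and 22 passed the floor. In Ctrl, 0 of 22 were at least 2-fold higher or lower at day 8, beside 5.02% and 4.46% of all genes. In AMKO, 1 of 22 was 2-fold higher and 1 was 2-fold lower, beside 4.69% and 3.55%. Skap2, an adaptor of leukocyte integrin activation, was 1.03 higher and Ptk2b, the focal adhesion kinase relative Pyk2, differed by -1.15. Their Ctrl differences had the same signs, at 0.56 and -0.71. Tln1, which encodes the talin that binds beta chain tails, had values between 10.10 and 10.24 in all 4 arrays. Fermt3, the kindlin of blood cells, lay between 10.31 and 10.56. None of these genes was 2-fold different between AMKO and Ctrl at either time. In the additive limma fit, 0 of 22 passed for 5FU or AMKO, beside 0% of all genes. At an unadjusted p under 0.05 there were 5 for 5FU and 0 for AMKO, beside 27.8% and 3.17% of all genes. All 5 inhibitors on the list, among them Sharpin and the filamin gene Flna, passed the floor and stayed under 2-fold in the 4 comparisons of 1 array with 1 array. Over all genes, the share at least 2-fold different in 1 direction ran from 0.228% to 5.02% in these comparisons.

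Among 18 genes of integrin ligands, 17 were named and 14 passed the floor. In Ctrl, 3 were at least 2-fold higher at day 8, beside 5.02% of all genes: Fn1 (3.91), Thbs1 (2.16) and Vcam1 (1.5). The 4 that were at least 2-fold lower, beside 4.46%, were Jam2 (-2.48), Lama5 (-1.17), F11r (-1.13) and Lama4 (-1.06). Fn1, fibronectin, the ligand of VLA-4 and VLA-5, was at 10.24 in the Ctrl day 8 array, and at 6.33, 5.86 and 6.70 in the Ctrl basal, AMKO basal and AMKO day 8 arrays. As with Itgam, 1 array was high, and the same holds for Thbs1, thrombospondin, with 7.96 in Ctrl day 8 and 5.74 to 6.16 elsewhere. In AMKO, Vcam1, the endothelial and stromal ligand of VLA-4, was higher by 1.16, and Jam2 (-1.59) and Lama5 (-1.09) were at least 2-fold lower, beside 4.69% and 3.55% of all genes. The basal values of Vcam1, 5.25 and 4.40, were under the floor, so the size of its difference is uncertain. Jam2, a junctional adhesion molecule that binds VLA-4, had values of 8.44 and 8.65 at basal, and of 5.96 and 7.06 at day 8. Its day 8 values were both below its basal values, and AMKO exceeded Ctrl by 1.10 at day 8. Of the 14 ligand genes, 3 were at least 2-fold lower in AMKO than in Ctrl at day 8, beside 2.63% of all genes. These were Fn1 (-3.54), Thbs1 (-1.80) and Vcam1 (-1.19). Jam2 was the 1 gene at least 2-fold higher, beside 0.74% of all genes. Both counts use the Ctrl day 8 array.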

How the data were processed

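RNA of sorted LSK cells was measured on 4 Affymetrix arrays, 1 per group. The authors' deposited table held 1 log2 value per probe set and array. The log2 scale was read from the values (1.99 to 13.43). How background was corrected and arrays were normalized is not stated in the labels, and values were used without further scaling. Array medians lay between 5.43 and 5.55. Precision is limited by the number of arrays.

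Of 34472 probe sets, 23521 named 1 gene, 1814 several and 9137 none here. Symbols were updated through Entrez identifiers for 23328 (GRCm38.p6 table), and 193 kept the platform symbol. A gene's probe set of highest mean was used, and genes reaching 5.475 in 1 array were kept. Additive fits used limma 3.58.1 in R 4.3.3 (lmFit, eBayes with trend, two-sided, Benjamini-Hochberg over 14061 genes). They were also run on simulated data that held a treatment effect and independent noise. No genotype effect and no unequal response of the genotypes was simulated, so that run does not show how the fit behaves on these arrays.

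The integrin genes, further lists, motifs and tests were chosen with earlier results of these data known. Named were the 9 integrins, genes of the integrin-related lists at least 2-fold different in 1 of 4 comparisons, up to 4 examples per marker list, and 3 nearest genes per member. Itgax, Itgad, Itgb5, Itga10, Tln1, Fermt3, Sharpin, Flna, Kit, Cd34, C1qa, C1qb, Cd3e, Klrb1c, Ncr1, Gp9 and the Y-linked genes were added outside this rule, after their values were seen. Alternatives were scaling, floors, averaged probe sets, fold sizes, limma settings and left-out arrays.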

Additional observations from a re-analysis of the deposited data

Results flagged for a closer look

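The difference between AMKO and Ctrl had opposite signs at basal and at day 8 for 4 integrin genes, each from 1 array against 1 array, so the difference between times was not tested. The values at basal and at day 8 were 0.26 and -0.88 for Itgal, 0.59 and -3.53 for Itgam, 0.01 and -0.13 for Itga4 (both negative after median centring, at -0.07 and -0.14), and -0.07 and 0.33 for Itgb1. The Itgam and Itgal values at day 8 use the Ctrl day 8 array, in which the neutrophil and B-lineage markers were high, and the part of those cells in the values was not tested.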

How the results depend on the processing

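The deposited values have no replicate, and the size of each single-array difference has no error. Quantile normalization, median centring, averaged probe sets, a floor at the 75th percentile and none gave 44 member values in each of the 4 comparisons of 1 array with 1 array, and 44 for the AMKO minus Ctrl gap in 5FU differences. All stayed on their side of 2-fold, and 1 sign turned (Itga4, AMKO against Ctrl at basal, -0.07 after median centring). The stricter floor (7.32) left out Itgb7. With 1.5-fold as the size, the count was 4 of 9 for 5FU in Ctrl, all higher, beside 23.8% of all genes. For 5FU in AMKO it was 4 of 9, 3 higher and 1 lower, beside 25.9%. For AMKO against Ctrl it was 1 at basal (Itgam), beside 6.14%, and 3 at day 8, beside 9.47%. With 3-fold the counts were 0 for 5FU in AMKO, beside 1.94%, and 1 for that gap, beside 2.08%. In the additive limma fit for 5FU, 0 integrin genes and 0 genes passed; the counts were 2 and 964 with quantile normalization, 1 and 161 with median centring, 2 and 1293 with the stricter floor, 2 and 1315 with robust estimation, and 4 and 1823 with treatment as the only term. The integrin genes called were Itgb2 in each of these, Itgal in all but median centring, and Itga4 and Itga6 with treatment alone. The cause of these changes was not tested. No floor, averaged probe sets and limma without a trend gave 0 and 0. Leaving out 1 array gave 0 to 3 integrin genes for 5FU, with 461 genes called without the AMKO day 8 array and 0 without any other. Fits on 3 arrays with genotype alone mix in the time of sampling. Over all alternatives, 12 of 107 member values of the AMKO average turned sign. Without the Ctrl day 8 array Itgal was 0.88, Itgam 0.69 and Itgb2 0.34, against -0.31, -1.47 and -0.64 in the main fit. For AMKO the fit called 0 integrin genes in every alternative, and 33 genes without the Ctrl basal array. The counts of all genes at least 2-fold different in the 4 comparisons were 1333, 1159, 130 and 474; the stricter floor gave 913, 901, 74 and 260, the 1.5-fold size 3352, 3636, 863 and 1332, and the 3-fold size 482, 273, 36 and 226. For that gap, 774 genes became 417, 2465 and 292. After median centring the AMKO basal split of 32 higher and 98 lower was 22 and 135. No paired analysis was possible because each group had 1 array.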

Other observations

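Marker lists of further cell types were read beside the integrins, as median log2 differences between day 8 and basal over all named genes. They were 0.615 in Ctrl and -0.02 in AMKO for 10 T and NK cell genes, 1.65 and -0.22 for 4 erythroid genes, -0.07 and 0.19 for 6 endothelial and stromal genes, and -0.54 and -0.325 for 10 LSK and stem cell genes. That list was mixed, with 7 genes lower and 3 higher in each genotype. The 3 higher were Cd48 (4.97 in Ctrl and 4.34 in AMKO), Flt3 (1.57 and 0.52) and Cd34 (1.03 and 0.64). Flt3 is a receptor of multipotent and lymphoid progenitors. Of the 7 lower, Procr (-1.64 and -0.7) and Gata2 (-1.02 and -0.63) had the largest differences in Ctrl. The megakaryocyte list had -0.91 and -0.695 over 6 genes, Itga2b among them. Within the T and NK list, Nkg7 was higher at day 8 in both genotypes, by 1.86 and 1.77, in the same arrays as Itgal and Itgb2. The NK receptor gene Klrb1c had differences of -0.93 and -0.81, and Ncr1, under the floor in all 4 arrays, -0.24 and -0.21. Cd3e, a T cell receptor component, lay under the floor in all 4 arrays, between 5.17 and 5.39. The median for 9 skeletal muscle genes was -2.07 in Ctrl, beside -0.14 in AMKO.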
